A study of Mus musculus with 8 samples.

Results

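The HoxC cluster genes are the 9 Hox genes on mouse chromosome 15, of 26225 annotated genes, and their H3K4me3 was measured by ChIP-Seq. They were chosen by cluster membership, with earlier results of these data known, and all 9 were found: Hoxc13, Hoxc12, Hoxc11, Hoxc10, Hoxc9, Hoxc8, Hoxc6, Hoxc5 and Hoxc4, in their order along the plus strand. Tags were counted in each library in 2 ways, the sequence tags within 1 kb of each transcription start site (TSS) and the tags in the 8 stretches between the windows of neighbouring genes. Levels are given as RPM, the tags divided by all tags of the library and multiplied by 1000000.
The samples were wild-type mouse embryonic stem cells (wt mESCs, line TC-1), Men1-ko mESCs that lack menin (menin-null mESCs, line 3.2N), and pancreatic islet-like endocrine cells (PILECs) differentiated in dishes from each of these lines. All came from the genetic background 129S6/SvEvTac. The mESCs were grown with Leukemia Inhibitory Factor on irradiated feeder cells and then made feeder-free, and PILECs were obtained through embryoid bodies, serum-free selection, expansion of precursors and nicotinamide. Each genotype was 1 line, and each of the 4 conditions had 1 H3K4me3 library and 1 input library, so no difference below has a replicate check and genotype cannot be told apart from line. Intervals are exact 95% intervals for counting error only, and p-values were not computed. Fewer cells that carried the mark and less mark per cell cannot be told apart in these populations.

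Hox genes encode homeodomain transcription factors that specify position along the head-to-tail axis, and the genes of a cluster are activated in the order in which they lie, from the 3′ end (Hoxc4) to the 5′ end (Hoxc13). In embryonic stem cells many of their CpG-rich promoters carry H3K4me3 together with the Polycomb mark H3K27me3, and on activation H3K4me3 can spread over stretches of a cluster. Menin is a subunit of the MLL1 and MLL2 histone methyltransferase complexes, which place H3K4me3 and are needed to maintain Hox expression.

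Sequences are shown for the promoters at the extremes of the comparisons and for neighbouring stretches that behaved differently, all read from the mm9 plus strand of chromosome 15, with CpG dinucleotides in capitals. The 250 bases before the TSS are given for Hoxc9 (chr15:102807213-102807462), which had the lowest menin-null over wt ratio in PILECs, for Hoxc5 (chr15:102843996-102844245), which had the highest, and for Hoxc13 (chr15:102751284-102751533), which had the highest level in wt mESCs.
Hoxc9: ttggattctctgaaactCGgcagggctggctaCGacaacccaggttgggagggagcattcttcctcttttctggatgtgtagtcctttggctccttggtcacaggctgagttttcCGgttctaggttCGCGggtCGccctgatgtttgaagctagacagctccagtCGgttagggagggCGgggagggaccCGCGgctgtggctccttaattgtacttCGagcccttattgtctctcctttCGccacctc
Hoxc5: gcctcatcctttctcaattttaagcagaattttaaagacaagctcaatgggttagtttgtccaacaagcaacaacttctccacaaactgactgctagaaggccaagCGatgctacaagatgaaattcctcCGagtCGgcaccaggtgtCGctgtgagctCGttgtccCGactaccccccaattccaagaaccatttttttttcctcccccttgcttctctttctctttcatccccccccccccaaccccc
Hoxc13: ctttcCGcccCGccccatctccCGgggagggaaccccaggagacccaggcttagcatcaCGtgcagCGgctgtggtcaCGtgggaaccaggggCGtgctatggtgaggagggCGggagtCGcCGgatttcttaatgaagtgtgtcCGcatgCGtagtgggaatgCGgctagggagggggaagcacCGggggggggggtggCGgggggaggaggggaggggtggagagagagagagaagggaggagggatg
These hold 12, 6 and 15 CpG respectively. A pair of short windows in the same 1-kb bin, in an intron of Hoxc6 near its upstream starts, is shown as well. The first (chr15:102829734-102829933), called kept, held the most menin-null PILEC tags of the windows of its length in that bin. The second (chr15:102830334-102830533), called lower, had the largest wt minus menin-null difference in RPM of all windows of that length between the promoters.
Kept: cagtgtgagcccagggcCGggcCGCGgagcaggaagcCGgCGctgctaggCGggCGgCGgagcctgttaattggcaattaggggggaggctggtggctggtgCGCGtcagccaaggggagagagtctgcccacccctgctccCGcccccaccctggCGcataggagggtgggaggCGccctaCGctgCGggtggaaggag
Lower: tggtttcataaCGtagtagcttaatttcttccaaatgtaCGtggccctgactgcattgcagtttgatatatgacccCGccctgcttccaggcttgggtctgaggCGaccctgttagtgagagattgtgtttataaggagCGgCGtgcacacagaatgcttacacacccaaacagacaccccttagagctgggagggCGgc
The kept window holds 15 CpG and the lower one 7. The microRNA gene Mir196a-2 lies in the stretch between Hoxc10 and Hoxc9, which had the lowest ratio of the 8 stretches. Its mature 5p product, as RefSeq gives it and as found in mm9 at chr15:102803796-102803817, is shown with its seed (bases 2 to 8) in capitals.
mmu-miR-196a-5p: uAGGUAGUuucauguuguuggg

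For mESCs the H3K4me3 libraries held 2432377 (wt) and 3517028 (menin-null) tags, for PILECs 18773635 (wt) and 17682677 (menin-null), and the inputs between 3744616 and 19016697, so mESC values rest on fewer tags. The share of H3K4me3 tags within 1 kb of any annotated start was 43.5%, 51.4%, 42.7% and 40.1% in the same order, against 4.73% to 7.57% in the inputs. Over the Men1 gene the wt inputs of mESCs and PILECs held 44 and 67 tags and the menin-null inputs 16 and 31. The longest stretch with no menin-null input tag, chosen for that, ran from 6336079 to 6338978 on chromosome 19 and held 18 and 29 tags in the wt inputs. All 10 embryonic stem cell markers were at least 2-fold lower in PILECs of both genotypes, and their summed level was 410.7 and 510.1 RPM in wt and menin-null mESCs and 48.9 and 49.7 RPM in the corresponding PILECs. For the 16 islet markers the sums were 99.1 and 118.0 RPM in mESCs and 90.2 and 85.7 RPM in PILECs, and within the list the PILEC levels ran from 0.213 RPM at Ins1 in wt to 25.1 RPM at Pcsk2 in wt. The hormone genes Ins1, Ins2, Gcg, Sst, Ppy and Iapp held at most 1.28 RPM in the PILEC libraries. Pdx1 held 1.07 RPM (wt) and 1.36 RPM (menin-null). The highest, Pcsk2 and Chga, held 25.1 and 20.4 RPM in wt and 22.8 and 19.3 RPM in menin-null PILECs. From mESCs to PILECs, 5 of 14 islet markers tested were at least 2-fold lower in each genotype, where 21.7% (wt) and 22.3% (menin-null) of all genes were. At least 2-fold higher were 2 in wt and 1 in menin-null cells, where 7.14% and 8.9% of all genes were. The menin-null over wt log2 ratio of the inputs between the promoters was, for mESCs, -0.13 (-0.41 to 0.15), and, for PILECs, -0.05 (-0.19 to 0.09). In mESCs the stretch from Hoxc6 to Hoxc5 held 13 and 2 input tags, a log2 ratio of -2.52 (-5.71 to -0.38).

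The mESC comparison shows HoxC H3K4me3 without menin before differentiation, and the sums over the cluster were close in both lines. Between the promoters they were only 1.22 (wt) and 1.21 (menin-null) times their inputs. The ratio there thus says little about the mark. Summed over the 9 promoters, the level was 66.6 RPM in wt and 71.1 RPM in menin-null mESCs, a log2 ratio of 0.09 (-0.20 to 0.39), and between the promoters it was 69.9 and 63.1 RPM, a log2 ratio of -0.15 (-0.44 to 0.15). The second of these depended on the scaling: it was -0.39 when libraries were scaled by tags near start sites and -0.36 when centred on the median of all genes, and in the same order the promoter ratio was then -0.15 and -0.11. A gene was counted as 2-fold different when its ratio passed 2-fold with 1 tag added to each count and both libraries together held at least 10 tags. By this rule 0 of the 9 members were at least 2-fold lower in menin-null mESCs, where 2.36% of the 14502 genes tested were, and 1, Hoxc6, was at least 2-fold higher, where 1.43% were. The median of all genes tested was 0.21 on the log2 scale, and the median of the members was 0.07. The interval of the mESC ratio excludes a 2-fold difference at Hoxc13 (-0.37 to 0.53) and Hoxc4 (-0.82 to 0.82) and does not at the other 7 members, among which the interval of Hoxc6 alone excludes 0.
Among the TSS windows, those of Hoxc13 and Hoxc4, at the ends of the cluster, were the highest, although the window around the Hoxc9 start codon held 13.6 and 9.95 RPM. Hoxc13, a gene of hair and nail formation, held 29.2 RPM in wt and 30.7 RPM in menin-null mESCs. Hoxc4, at the 3′ end, held 9.46 and 9.38 RPM. Hoxc12 held 6.99 and 7.96 RPM, and Hoxc11 and Hoxc10, which act in the hindlimb and its motor neurons, each held 6.99 RPM in wt and 3.98 and 5.12 RPM in menin-null mESCs. Hoxc13 stood apart from every other member in both lines, while the 95% intervals of Hoxc4, Hoxc12, Hoxc11 and Hoxc10 overlapped in wt mESCs. In Hoxc12, Hoxc11 and Hoxc10 nearly all of these tags lay downstream of the TSS: 17, 17 and 16 of the 17 tags at each in wt mESCs.
Over their inputs, Hoxc12, Hoxc11 and Hoxc10 stood at 2.47, 3.30 and 3.71 times in wt and 7.45, 4.97 and 1.92 times in menin-null mESCs, and Hoxc9, Hoxc8 and Hoxc5 at 1.75, 0.873 and 4.08 times in wt and 1.60, 3.19 and 3.19 times in menin-null mESCs, so the order of the members over input is not that of their RPM. Hoxc5 held 2.88 RPM in wt and 4.26 RPM in menin-null mESCs, Hoxc9 held 2.47 and 2.56 RPM, and Hoxc8 held 1.23 and 2.56 RPM. At Hoxc6 the lines differed most. It held 1 tag (0.411 RPM) in wt and 16 tags (4.55 RPM) in menin-null mESCs, a log2 ratio of 3.47 (0.78 to 8.86). All 16 tags had distinct positions, between 99 and 877 bp downstream of the TSS, and the inputs there held 1.88 and 1.60 RPM. This rests on the start nearest to the start codon, and at the upstream starts of Hoxc6 the direction was opposite, as given further on.

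**Figure D1:**
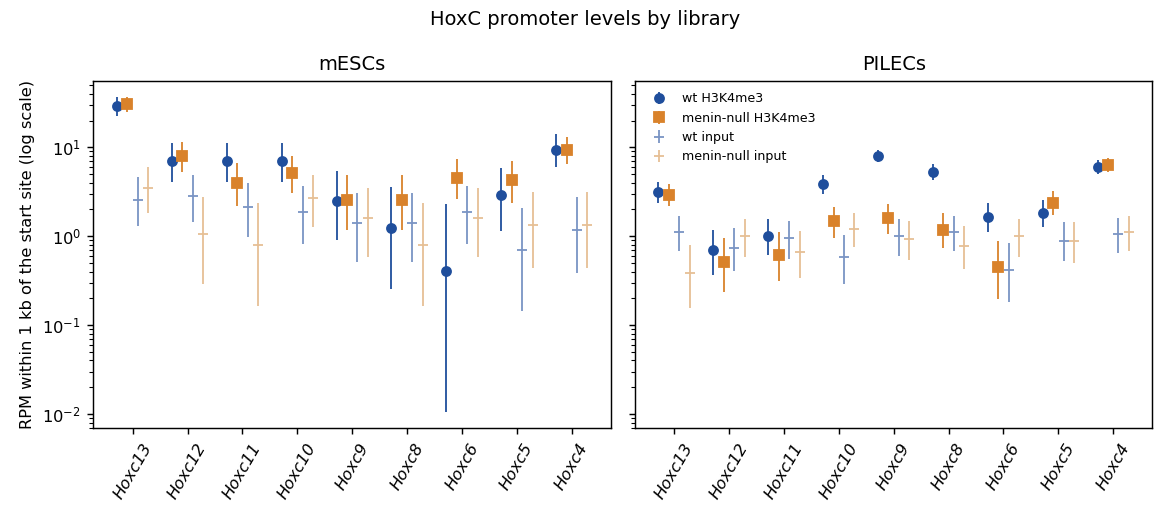
H3K4me3 and input level (RPM, log scale) within 1 kb of the TSS of each HoxC gene, in cluster order, in mESCs (left) and PILECs (right); bars are exact 95% counting intervals of 1 library each. In mESCs the wt and menin-null intervals overlap except at Hoxc6, and in PILECs they part at Hoxc10 (3.84 and 1.47 RPM), Hoxc9, Hoxc8 and Hoxc6 only.

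In PILECs, the same comparison gave a block of lower H3K4me3 in the middle of the cluster. The study had already reported, from these libraries, reduced H3K4me3 at the Hox loci in menin-null PILECs, so the values below are no independent test. Summed over the 9 promoters, the level was 31.5 RPM in wt and 17.5 RPM in menin-null PILECs, a log2 ratio of -0.85 (-1.05 to -0.65), against 0.02 (-0.32 to 0.36) in the inputs. The members at least 2-fold lower numbered 4 of 9, where 2.78% of the 23847 genes tested were, and the 4 were neighbours: Hoxc10, Hoxc9, Hoxc8 and Hoxc6. Within 500 bp of the TSS the log2 ratio of Hoxc10 was -0.84, and the count was 3. None was at least 2-fold higher, where 3.69% of genes were. The median of the members was -0.65 and that of all genes tested -0.05.
Hoxc9, a regulator of thoracic identity in the skeleton and spinal cord, held 151 tags (8.04 RPM) in wt and 28 tags (1.58 RPM) in menin-null PILECs. Its TSS window was the highest of the members in wt PILECs, though its interval overlapped that of Hoxc4. Hoxc9 was 5.08-fold lower without menin, a log2 ratio of -2.34 (-2.98 to -1.76), which ranked 26 among the 23847 genes from the lowest. The inputs there held 0.999 and 0.938 RPM, so the menin-null level was 1.69 times its input and the wt level 8.05 times.
Hoxc8, which acts in thoracic vertebrae and forelimb motor neurons, held 99 tags (5.27 RPM) in wt and 21 tags (1.19 RPM) in menin-null PILECs. The log2 ratio was -2.15 (-2.90 to -1.46), rank 35, and the interval overlapped that of Hoxc9.
Hoxc6, the neighbour of Hoxc8 on the 3′ side, held 31 tags (1.65 RPM) and 8 tags (0.452 RPM), a log2 ratio of -1.87 (-3.20 to -0.71). The menin-null level was 0.456 times its input of 0.993 RPM. Hoxc10 held 72 tags (3.84 RPM) and 26 tags (1.47 RPM), a log2 ratio of -1.38 (-2.09 to -0.72). Its menin-null level was 1.21 times the input. With the menin-null levels this close to the input, the size of the ratio depends on it. With input subtracted the log2 ratios were -3.40 at Hoxc10, -3.34 at Hoxc9 and -3.16 at Hoxc8. At Hoxc6 the menin-null level was below its input, so subtraction gives no ratio.

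On both sides of this block no member differed 2-fold. Hoxc4 held 114 tags (6.07 RPM) in wt and 112 tags (6.33 RPM) in menin-null PILECs, a log2 ratio of 0.06 (-0.33 to 0.45). Hoxc5, the next gene after Hoxc6, held 34 tags (1.81 RPM) and 42 tags (2.38 RPM), a log2 ratio of 0.39 (-0.30 to 1.09). Hoxc13 held 59 tags (3.14 RPM) and 52 tags (2.94 RPM), a log2 ratio of -0.10 (-0.66 to 0.47). These 3 were above their inputs in both genotypes, and for each the interval excludes a 2-fold drop.
Hoxc12 and Hoxc11 could not be read in this way. Hoxc12 held 13 and 9 tags and Hoxc11 held 19 and 11 tags, which put the wt levels at 0.941 and 1.07 times the input, and the intervals of their log2 ratios ran from -1.85 to 0.89 and from -1.92 to 0.44. In menin-null PILECs the order of levels was led by Hoxc4, followed by Hoxc13, Hoxc5, Hoxc9, Hoxc10 and Hoxc8. Hoxc4 stood above all others. The intervals of Hoxc13, Hoxc5 and Hoxc9 overlapped, as did those of Hoxc5, Hoxc9, Hoxc10 and Hoxc8.

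**Figure D2:**
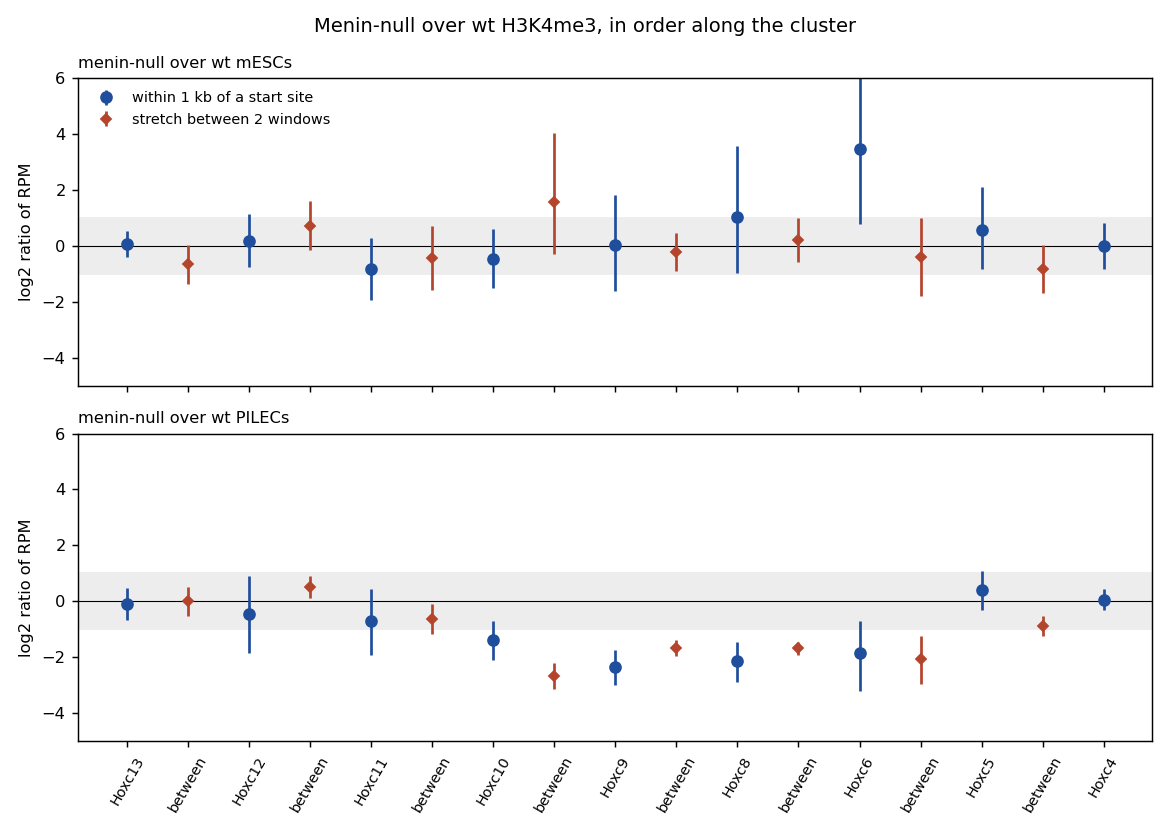
Menin-null over wt log2 ratio of RPM for the 9 windows around start sites (circles) and the 8 stretches between them (diamonds), in cluster order, in mESCs (top) and PILECs (bottom); bars are exact 95% counting intervals, 1 of which runs past the top of the axis (Hoxc6 in mESCs), and grey marks less than 2-fold. In PILECs the values lie below -1 from Hoxc10 to the stretch after Hoxc6, with the lowest, -2.67, between Hoxc10 and Hoxc9.

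The stretches between the promoters held most of the cluster's H3K4me3 tags in wt PILECs. The difference between genotypes there was larger than within 1 kb of the TSSs used here. Per kb the promoter windows held 1.75 RPM in wt PILECs, over 18.0 kb, and the stretches 1.00 RPM, over 97.3 kb. Their share of the cluster's tags was 75.6% (73.8 to 77.3, exact binomial) in wt and 69.4% (66.5 to 72.2) in menin-null PILECs, against 51.2% and 47.0% in wt and menin-null mESCs and 78.1% to 85.1% in the inputs. The level was 97.6 RPM in wt and 39.6 RPM in menin-null PILECs, a log2 ratio of -1.30 (-1.43 to -1.17). In wt PILECs it was 2.19 times the input and in menin-null PILECs 0.920 times. The promoter ratio depended on the window and the input, and was -1.19 within 2 kb of the TSS and -1.31 with input subtracted. At the 5′-most starts the order turned, with -1.40 at the promoters and -1.28 between them.
From Hoxc10 to Hoxc5 the mean density of each stretch was similar in wt PILECs. It was 2.01 RPM per kb between Hoxc10 and Hoxc9, 1.93 between Hoxc9 and Hoxc8, 1.89 between Hoxc8 and Hoxc6 and 1.51 between Hoxc6 and Hoxc5, each 2.67 to 4.57 times the input. The menin-null densities were 0.316, 0.610, 0.587 and 0.363 RPM per kb. The log2 ratios were -2.67 (-3.15 to -2.22), -1.66 (-1.96 to -1.37), -1.69 (-1.94 to -1.44) and -2.05 (-2.97 to -1.23). Over whole stretches the drop was thus larger between Hoxc10 and Hoxc9 than in either of the next 2, beyond the intervals. Each of those 2 holds a bin that stayed marked in menin-null PILECs. These bins held 106 and 63 tags (at 60 kb) and 124 and 84 tags (at 78 kb) in wt and menin-null PILECs. The drop without them was not tested. Between Hoxc10 and Hoxc9 the menin-null density was 0.575 times its input, so its ratio depends on the input. Within a stretch the wt density was uneven: the 5 bins from 64 to 68 kb after the Hoxc13 TSS, between Hoxc9 and Hoxc8, held 0.266 to 0.852 RPM, with inputs of 0.316 to 0.789 RPM.
Between Hoxc5 and Hoxc4 the density was 0.553 RPM per kb in wt and 0.301 in menin-null PILECs, a log2 ratio of -0.88 (-1.24 to -0.52). On the 5′ side the density was 0.534 to 1.11 times the input in both genotypes, 0.416 and 0.267 RPM per kb between Hoxc11 and Hoxc10, 0.330 and 0.466 between Hoxc12 and Hoxc11 and 0.261 and 0.261 between Hoxc13 and Hoxc12. Between Hoxc12 and Hoxc11 it was thus slightly higher without menin, a log2 ratio of 0.50 (0.11 to 0.89), at an input of 0.419 to 0.480 RPM per kb. The marked domain of wt PILECs had its 5′ edge at Hoxc10, since no bin farther on the 5′ side was marked there.

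**Figure D3:**
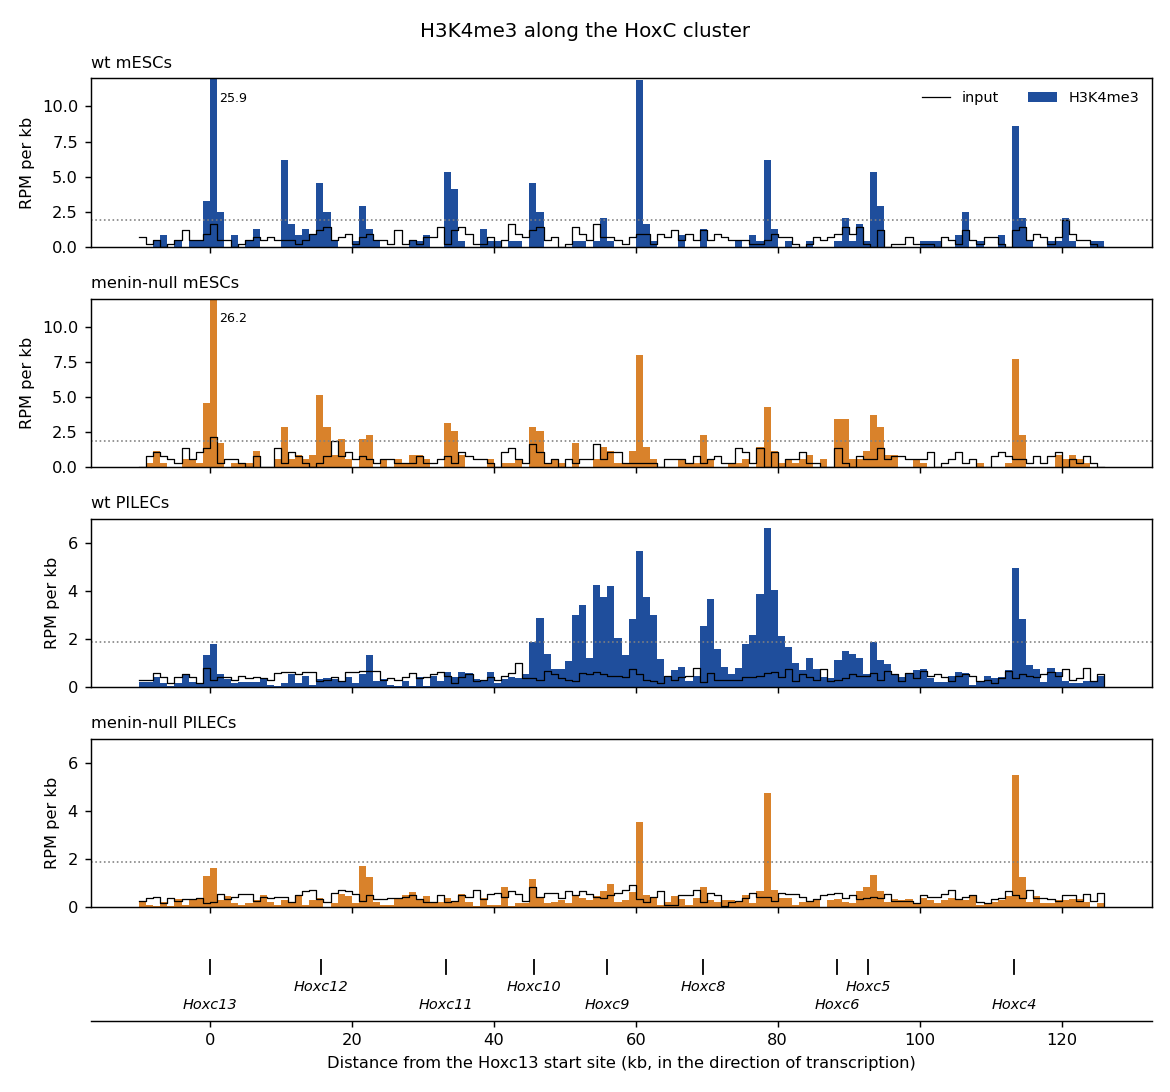
H3K4me3 (bars) and input (line) in RPM per 1-kb bin against distance in kb from the Hoxc13 TSS; the dotted line is 5 times the genome mean, and the bin at the Hoxc13 TSS reaches 25.9 and 26.2 RPM in mESCs, past the axis. The wt PILEC panel shows a broad domain from about Hoxc10 to past Hoxc8, with a gap from 64 to 68 kb, that the menin-null PILEC panel lacks, with 3 sharp bins left above the dotted line at 60, 78 and 113 kb.

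Read in 1-kb bins, the broad domain was missing in menin-null PILECs while 3 sharp peaks stayed above the cutoff used. Of the 136 bins from 10 kb before Hoxc13 to 10 kb after Hoxc4, 21 reached 5 times the genome mean (1.88 RPM) in each mESC library, and 20 did so in wt but 3 in menin-null PILECs. The 3 menin-null PILEC bins were among the 20 of wt PILECs, and no bin was marked in menin-null PILECs alone. All 3 were also marked in a mESC library, and so were 7 of the 20 wt PILEC bins, these 3 included. A smaller library reaches the cutoff with fewer tags, and the input was not taken into account. In wt mESCs the bin at 120 kb, past Hoxc4, reached it with 5 tags (2.06 RPM) at an input of 1.88 RPM. With input subtracted fewer wt mESC bins were marked, as given at the end. These counts depend on the cutoff. Below it, the bin at 21 kb, between Hoxc12 and Hoxc11, held 10 tags (0.533 RPM) in wt and 30 (1.70 RPM) in menin-null PILECs. Its log2 ratio was 1.67 (0.60 to 2.87). The bin at the Hoxc13 TSS held 1.81 and 1.64 RPM. The longest run of marked bins in wt PILECs was 5, chr15:102827534-102832533, around the upstream starts of Hoxc6.
The first of the 3 bins, 60 kb from the Hoxc13 TSS (chr15:102811534-102812533), held the Hoxc9 exon with the start codon, which lies 4621 bp downstream of the Hoxc9 TSS. It held 11.9 and 7.96 RPM in wt and menin-null mESCs and 5.65 and 3.56 RPM in wt and menin-null PILECs. The PILEC log2 ratio was -0.66 (-1.14 to -0.20), whereas in the 3 bins before and 3 after it was -2.71 (-3.24 to -2.22).
The second bin, at 78 kb (chr15:102829534-102830533), lay in an intron of Hoxc6 and overlapped no annotated exon. It held 6.17 and 4.26 RPM in mESCs and 6.61 and 4.75 RPM in PILECs, a PILEC log2 ratio of -0.48 (-0.89 to -0.06), with -2.45 (-2.90 to -2.01) in the 6 bins around it. The third, at 113 kb, lay on the Hoxc4 TSS and gave 0.15 (-0.28 to 0.57), with -1.05 (-1.56 to -0.56) around it. Since these bins were picked from the PILEC libraries, the values describe them and are no test.
The pair of windows printed above lies inside the second bin. The kept window held 23 tags in wt and 35 in menin-null PILECs, a log2 ratio of 0.69 (-0.11 to 1.52), and the lower window held 30 and 4 tags, a log2 ratio of -2.82 (-4.79 to -1.32). Both were picked by their PILEC tags, so these ratios are no test. The window picked in the first bin by the rule of the kept one (chr15:102812134-102812333, 20 CpG) held 40 and 20 tags. Its log2 ratio was -0.91 (-1.77 to -0.11).

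A split of the bins by their mark in mESCs gave a larger PILEC difference where mESCs had no mark. This split was chosen after the tracks had been seen. Over the whole cluster, where it uses no PILEC value, the menin-null over wt log2 ratio in PILECs was -0.49 (-0.67 to -0.31) for the 17 bins marked in both mESC libraries and -1.58 (-1.73 to -1.44) for the 92 bins marked in neither. The same split is described for the block alone, whose limits were taken from the PILEC ratios. From the Hoxc10 window to the Hoxc5 window, the 6 bins marked in both mESC libraries held 3.39 RPM per kb in wt and 1.91 in menin-null PILECs, a log2 ratio of -0.83 (-1.08 to -0.58). The 41 bins marked in neither mESC library held 1.66 and 0.349 RPM per kb, a log2 ratio of -2.25 (-2.45 to -2.06), and inputs of 0.451 and 0.466 RPM per kb. Without menin, the bins that mESCs did not mark stood below their input, and those that mESCs marked stood above it, at 0.478 RPM per kb of input.
The bins that mESCs marked were CpG-rich, with a median of 45 CpG per kb against 11.5 in those marked in neither. Across the 136 bins, which share libraries and neighbours, Pearson's r of CpG count and RPM was 0.72 (wt) and 0.69 (menin-null) for mESCs, and 0.46 (wt) and 0.47 (menin-null) for PILECs. The 17 bins marked in wt but not in menin-null PILECs spanned 11 to 64 CpG, and the 3 marked in both spanned 42 to 82.

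**Figure D4:**
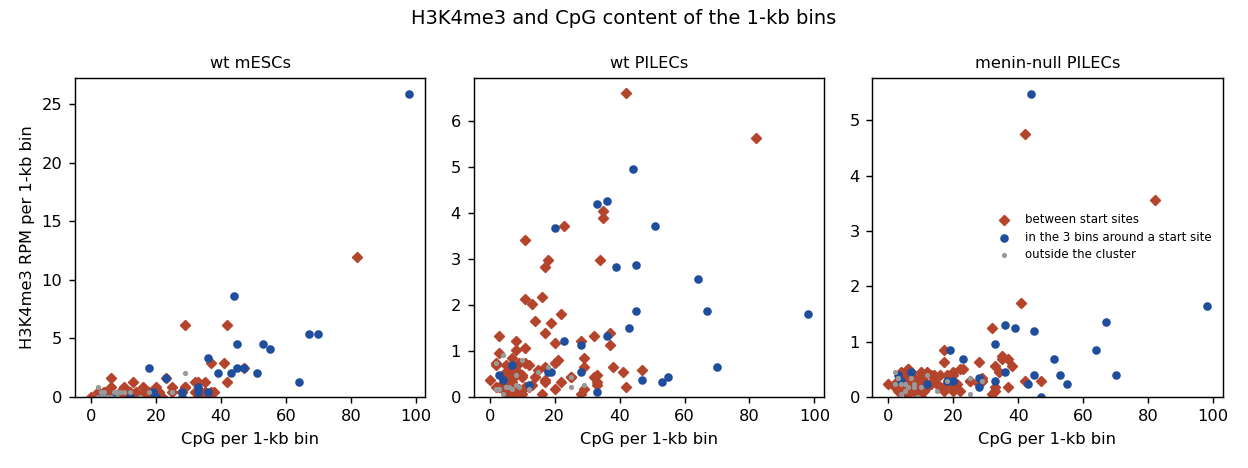
H3K4me3 (RPM) of each 1-kb bin against its number of CpG dinucleotides in wt mESCs, wt PILECs and menin-null PILECs; colours separate bins around start sites, bins between them and bins outside the cluster. In wt mESCs the level follows CpG count (r = 0.72), wt PILECs add marked bins with as few as 11 CpG, and menin-null PILECs keep 3 bins above 1.88 RPM, each with at least 42 CpG.

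From mESCs to PILECs the promoter sum was lower in both genotypes. The level between promoters was higher in wt and lower in menin-null cells, where it was close to the input. From wt mESCs to wt PILECs the promoter sum went from 66.6 to 31.5 RPM, a log2 ratio of -1.08 (-1.33 to -0.82), while between the promoters it went from 69.9 to 97.6 RPM, a log2 ratio of 0.48 (0.25 to 0.72), or 2.06 with input subtracted, as the inputs held 0.588 RPM per kb in mESCs and 0.459 in PILECs. From menin-null mESCs to menin-null PILECs both were lower, with log2 ratios of -2.02 (-2.27 to -1.78) and -0.67 (-0.89 to -0.45). Between the promoters the menin-null levels were 1.21 (mESCs) and 0.920 (PILECs) times their inputs. Those inputs held 0.538 and 0.443 RPM per kb, so the second ratio depends on the input. The medians of all genes tested were -0.15 and -0.30.
Along the wt line, 3 of 9 members were at least 2-fold higher in PILECs, where 7.14% of the 20628 genes tested were, and 3 were at least 2-fold lower, where 21.7% were. The higher ones were Hoxc9 (log2 ratio 1.71, 0.55 to 3.17), Hoxc8 (2.10, 0.51 to 4.40) and Hoxc6 (2.01, -0.58 to 7.35), the last from 1 tag in mESCs. The lower ones were the 5′ members: Hoxc13 was 9.29-fold, Hoxc12 10.1-fold and Hoxc11 6.91-fold lower. Since Hoxc12 and Hoxc11 were at input level in wt PILECs, their folds depend on the input, and input subtraction leaves too little there for a ratio. Hoxc10, Hoxc5 and Hoxc4 were 1.56-fold to 1.82-fold lower. The highest member was thus Hoxc13, at the 5′ end, in wt mESCs and Hoxc9, in the centre, in wt PILECs, with Hoxc4 next in both. In wt PILECs the intervals of Hoxc9 (6.81 to 9.43 RPM) and Hoxc4 (5.01 to 7.29 RPM) overlapped. An upstream start of Hoxc6 held 9.16 RPM there, above the Hoxc9 TSS window. Between the promoters, the highest ratio was from Hoxc10 to Hoxc9, with 3 tags in mESCs and 310 in PILECs of this line and a log2 ratio of 3.74 (2.18 to 6.03), followed by Hoxc8 to Hoxc6 with 1.69 and Hoxc9 to Hoxc8 with 0.60, both with intervals above 0. The count of higher members was 0 with windows of 500 bp on each side and 4 at the 5′-most starts, and it was 1 with windows around the start codons, where 7.37% of genes were higher and Hoxc9 had a log2 ratio of -0.48 (-1.02 to 0.10).
Along the menin-null line, 0 of 9 members were at least 2-fold higher in PILECs, where 8.9% of the 20991 genes tested were, and 6 of 9 were at least 2-fold lower, where 22.3% were. Hoxc13 was 10.4-fold lower, and Hoxc11 had a log2 ratio of -2.68 (-3.96 to -1.43). Hoxc12 had one of -3.97 (-5.24 to -2.84), and since its menin-null PILEC level was 0.512 times the input this value too depends on the input. Hoxc6 (-3.33, -4.76 to -2.02) and Hoxc10 (-1.80, -2.72 to -0.85) were also lower. With input subtracted the ratio was -3.13 at Hoxc10. At Hoxc12, Hoxc11 and Hoxc6 the menin-null PILEC level was below its input, so subtraction gives no ratio. Hoxc9 had a log2 ratio of -0.69 (-1.82 to 0.58) and Hoxc8, the sixth called, of -1.11 (-2.30 to 0.20), and both intervals hold 0. Hoxc5 (-0.84, -1.72 to 0.11) and Hoxc4 (-0.57, -1.14 to 0.04) were near their wt-line values. These comparisons share libraries with those between genotypes, so they are the same 4 counts read another way.

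The upstream starts of Hoxc6 and Hoxc9 lay within the domain and were lower in menin-null PILECs, and that of Hoxc4 lay outside it. Hoxc6 has starts at 102828688 and 102830960 besides the one at 102839910, and these held 129 and 172 tags (6.87 and 9.16 RPM) in wt PILECs and 21 and 51 tags (1.19 and 2.88 RPM) in menin-null PILECs. In wt PILECs both were higher than the Hoxc6 start used above. In mESCs they held 2.47 and 3.29 RPM in wt and 1.42 and 1.99 RPM in menin-null cells, opposite in direction to the start used above but with intervals that hold 0 (-2.85 to 1.18 and -2.42 to 0.93). The upstream start of Hoxc9, at 102806870, held 173 and 26 tags (9.22 and 1.47 RPM) in PILECs, and that of Hoxc4, at 102849367, held 17 and 12 tags, close to the input, a log2 ratio of -0.42 (-1.61 to 0.74).
The Hoxc9 TSS and its start codon gave different readings. Within 1 kb of the start codon, Hoxc9 held 33 and 35 tags in wt and menin-null mESCs and 183 and 79 tags in wt and menin-null PILECs, so its PILEC log2 ratio was -1.13 (-1.53 to -0.74), a smaller drop than at the TSS.
Noncoding genes of the cluster differed among themselves in PILECs. Within 1 kb of Mir196a-2, whose product pairs with transcripts of Hoxb8 and other Hox genes, 121 tags (6.45 RPM) were counted in wt and 13 (0.735 RPM) in menin-null PILECs, a log2 ratio of -3.13 (-4.08 to -2.30), with inputs of 0.999 and 1.27 RPM. Mir615 lies inside Hoxc5, 1095 bp from its TSS, so their windows overlap, and the levels near it were 2.93 and 1.98 RPM, a log2 ratio of -0.57 (-1.22 to 0.07). Gm16258, between Hoxc12 and Hoxc11, held 6 and 15 tags (0.320 and 0.848 RPM), a log2 ratio of 1.41 (-0.04 to 3.06). Its inputs held 0.841 and 0.883 RPM, so neither level was above input. The start of the long transcript Gm20398 lies 647 bp from the Hoxc10 TSS and shares most of its window, with a log2 ratio of -1.98 (-2.70 to -1.31).

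**Figure D5:**
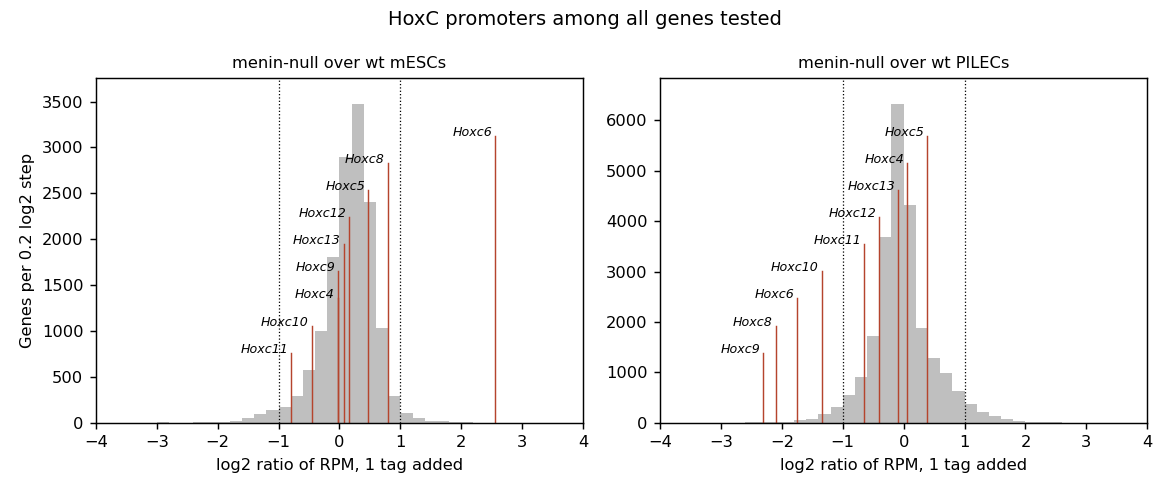
Menin-null over wt log2 ratio of RPM (1 tag added to each count) of all genes tested, in steps of 0.2, in mESCs (left, 14502 genes) and PILECs (right, 23847 genes), with the HoxC members as labelled lines and 2-fold dotted. In PILECs Hoxc9, Hoxc8, Hoxc6 and Hoxc10 lie left of -1, and the other 5 members lie between -1 and 1.

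Beyond the cluster, none of the 6 nearest protein-coding genes was 2-fold lower. Of the 3 nearest protein-coding genes on the 5′ side, Atp5g2 (25.7 and 26.9 RPM in wt and menin-null PILECs) and Calcoco1 (25.8 and 22.8 RPM) had log2 ratios of 0.07 (-0.12 to 0.25) and -0.18 (-0.37 to 0.02), and Gm17649 starts within 1 kb of Hoxc13 and shares its window. On the 3′ side Smug1 held 13 and 21 tags, Hnrnpa1 gave -0.16 (-0.29 to -0.03), and Cbx5, which encodes the heterochromatin protein HP1 alpha, held 9.64 and 5.60 RPM, a log2 ratio of -0.78 (-1.15 to -0.42), 178.5 kb past the end of Hoxc4.
The HoxC difference was smaller than that of HoxB. In PILECs 9 of 10 HoxB, 5 of 11 HoxA and 5 of 9 HoxD genes were at least 2-fold lower in menin-null cells, with log2 ratios of the summed levels of -2.22 (-2.40 to -2.03), -0.94 (-1.09 to -0.79) and -0.88 (-1.08 to -0.68), beside 4 of 9 and -0.85 in HoxC. The interval of HoxB does not meet that of HoxC, and those of HoxA and HoxD do.
Lists of genes whose products act with or upon Hox genes were counted in the same way, beside the 2.78% of all genes that were 2-fold lower, at which lists of this size would hold few or none. Of the 9 HOX cofactors of the Pbx, Meis and Pknox families, which bind DNA together with HOX proteins, none was at least 2-fold lower in menin-null PILECs, and Meis1 held 48.7 RPM in wt and 40.8 RPM in menin-null cells. None of the 8 genes of the MLL complexes was 2-fold lower. Of the 15 Polycomb genes 1 was, Bmi1 (2.66 and 1.19 RPM), and of the 12 upstream activators 1 was, Cdx4 (11 and 3 tags). For these lists only the start nearest to the start codon was read, and at that of Bmi1 the wt and menin-null mESCs held 3 and 7 tags. Of the markers of other cell types (6 neural, 7 fibroblast, 6 muscle, 6 liver and yolk sac), 0 differed 2-fold between the PILEC libraries. Their sums were neural 131.2 and 126.8 RPM, fibroblast 74.9 and 67.1 RPM, muscle 4.85 and 4.92 RPM, and liver and yolk sac 8.15 and 11.5 RPM in wt and menin-null. Among the others, 1 of 10 embryonic stem cell markers was 2-fold lower and 1 of 16 islet markers 2-fold higher in menin-null PILECs. The part of these cells in the HoxC difference was not tested.

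The members did not share 1 pattern over the 4 libraries. The genes whose centred log2 levels lay nearest to the mean pattern of the members, among 12670 searched, were A630055G03Rik, Clip4, Itih5, Sh3bgrl2 and E330016A19Rik, at Euclidean distances of 0.087 to 0.137 on the log2 scale. The members themselves lay 0.623 (Hoxc10) to 2.18 (Hoxc12) from it, distances that include counting error. The 5 genes were picked as the nearest of those searched, so their smaller distances follow from the search.
In sequence, the 250 bases before each TSS held 3 (Hoxc6) to 23 (Hoxc8) CpG, with a median of 13 against 7 over all 26225 promoters. TATAAA, on either strand, was found in 1 of 9 members (Hoxc12) and in 12.5% of all promoters. CCAAT was found in 5 of 9 and in 33.6%. TGATNNAT, letters common to HOX and PBX joint sites, was found in 1 of 9 (Hoxc11) and in 7.35%. The 4 members in the block had 18, 12, 23 and 3 CpG from Hoxc10 to Hoxc6, so CpG count before the TSS did not set them apart from the other 5, which had 6 to 15.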

How the data were processed

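ChIP-Seq with an H3K4me3 antibody, and input, were measured in mESCs and PILECs of both genotypes as 36-bp reads. Per the study's methods, the authors aligned them to mm9 and kept unique reads with at most 2 mismatches; the aligner is not given in the sources used here. The deposited files list 1 tag per line, with its start, end and strand and no normalization, and the authors did not pool libraries. By the deposited mismatch strings, 1.04% to 1.81% of tags had more than 2 mismatches. The deposited score column, a whole number that no source names, was not used.
Tags were counted at the middle of a 250-bp fragment (125 bp from the 5′ end) and scaled to all tags of the library. The TSS was the annotated start nearest to the start codon (GENCODE vM1, mm9). Ratios carry exact conditional binomial (Clopper-Pearson) 95% intervals. Tags without molecular identifiers are not independent molecules, so intervals cover counting error only, and 1.77% to 11.5% of tags shared position and strand. The scripts (Python 3.11.15, numpy 2.4.6, scipy 1.17.1, pandas 2.3.3, matplotlib 3.10.9) were tested on simulated data.
Named genes were the 9 members, the 3 nearest protein-coding genes on each side, the 5 genes most alike in pattern, and counts over fixed lists. Members and lists were chosen with earlier results of these data known. A total of 16 alternatives were computed.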

Additional observations from a re-analysis of the deposited data

Results flagged for a closer look

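The menin-null over wt log2 ratio of H3K4me3 was lower in PILECs than in mESCs by more than counting error at 3 members, 3 stretches and both sums. The values estimate the PILEC log2 ratio minus the mESC log2 ratio. They are the conditional log2 odds ratio of the 4 counts, with its exact 95% interval. They differ slightly from the plain difference of those ratios. With 1 library per condition, this difference has no replicate check.
At Hoxc9 the difference was -2.37 (-4.26 to -0.60), at Hoxc8 -3.16 (-5.80 to -1.01) and at Hoxc6 -5.19 (-10.8 to -2.18), the last of which rests on 1 tag in wt mESCs. The values at Hoxc9 and Hoxc6 depend on the start used. Around the Hoxc9 start codon the log2 ratios were -1.13 (-1.53 to -0.74) in PILECs and -0.45 (-1.18 to 0.28) in mESCs, and their intervals overlap. At the Hoxc6 start with most H3K4me3 they were -1.67 (-2.15 to -1.21) and -0.72 (-2.42 to 0.93), and their intervals overlap as well. For the 9 promoters together it was -0.94 (-1.30 to -0.59), and for the 8 stretches between them -1.15 (-1.48 to -0.83).
Among single stretches it was -4.23 (-6.73 to -2.29) from Hoxc10 to Hoxc9, -1.45 (-2.19 to -0.72) from Hoxc9 to Hoxc8 and -1.89 (-2.72 to -1.08) from Hoxc8 to Hoxc6. The wt mESC library held 3 tags in the first of these, against 310 in wt PILECs. The interval held 0 at Hoxc10 (-0.92, -2.20 to 0.34) and from Hoxc6 to Hoxc5 (-1.63, -3.31 to 0.01), which belong to the block that was lower in PILECs. It also held 0 at each of the 5 other members and in the other 4 stretches.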

How the results depend on the processing

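In PILECs, 3 to 5 members were at least 2-fold lower without menin under each of the alternatives that gave a count, and the stretches between promoters kept a log2 ratio of -1.30 to -1.21 (no value with input subtracted, since the menin-null level was at or below its input). The count of 5 came with input subtracted and included Hoxc11, whose menin-null level was below its input. The PILEC promoter ratio went from -0.85 to -1.31 with input subtracted, -1.19 within 2 kb of the TSS and -1.40 at the 5′-most start. In mESCs the count of members 2-fold lower went from 0 to 1 with scaling by tags near start sites, with centring on the median of all genes and with input subtracted. From wt mESCs to wt PILECs the promoter ratio was -1.34 within 500 bp, -0.68 within 2 kb and -0.80 at the start with most H3K4me3, the ratio between promoters was 2.06 with input subtracted, and the count of members higher went from 3 to 0 within 500 bp, 1 at 3-fold and 1 around start codons (chosen after seeing the data), with 2 within 2 kb and at the 5′ end of the tag, 4 at the 5′-most start and 3 otherwise. From menin-null mESCs to menin-null PILECs, scaling by tags near start sites gave -1.67 for promoters and -0.31 between them, centring gave -1.72 and -0.37, input subtraction gave -2.57 for promoters and the 5′-most start gave -0.89 between them. The direction turned for Hoxc6 between mESC lines at the start with most H3K4me3 (-0.70) and the 5′-most start (-0.75), for Hoxc6 in the menin-null line at the start with most H3K4me3 (0.37), and for Hoxc9 in the wt line around its start codon (-0.51). Values less than 2-fold or near 0 also changed sign: at the 5′-most start Hoxc4 went to 1.22 in the wt line, 0.37 in the menin-null line and -0.38 between PILECs, Hoxc5 between PILECs went to -0.53 within 2 kb, and the mESC promoter ratio of 0.09 ranged down to -0.15 (scaling by tags near start sites), with -0.39 to 0.06 between the mESC promoters. Smaller turns among members are not listed. Marked bins numbered 13 (input subtracted) or 10 (10 times the genome mean) in wt mESCs, 32 (3 times) or 6 (10 times) in menin-null mESCs, 36 (3 times) or 7 (10 times) for PILECs with menin, and 10 (3 times) for those without. The cause was not tested.
The mESC libraries limit the depth, with 1 to 23 tags at each wt mESC promoter but Hoxc13. No paired analysis was possible because each condition had 1 library, and for the same reason no library could be left out.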
